A study of Homo sapiens with 6 samples.

Results

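The Wnt pathway genes described here are the genes of Wnt ligands, receptors, inhibitors and intracellular signalling proteins, followed in HEK293T cells after silencing of LOC550643. They were chosen by name: protein-coding genes of the WNT, FZD, SFRP, DKK, DVL, LGR and AXIN families, and LRP5, LRP6, APC, CTNNB1, GSK3A, GSK3B, TCF7, TCF7L1, TCF7L2, LEF1, RNF43, ZNRF3, PORCN and WLS. The rule found 59 genes among 26391 gene rows, of which 19255 were protein-coding. HEK293T cells descend from human embryonic kidney and express the large T antigen of SV40. The LOC550643 siRNA group (n = 3) received a pool of 4 siRNAs against LOC550643, and the control siRNA group (n = 3) received a non-silencing siRNA. Both groups were the same line, transfected at 50% confluency, and RNA was taken 48 hours later. LOC550643, listed as LINC01420, encodes a small protein found with mRNA decapping proteins, as background. The labels do not state that replicates were separate cultures, so the spread behind each p-value may be technical.

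Wnt proteins are secreted, lipid-modified ligands that bind Frizzled receptors and the LRP5 and LRP6 co-receptors at the cell surface. Without a ligand, a destruction complex built on the Axin and APC scaffolds holds the GSK3 kinases against beta-catenin, which is then degraded. With a ligand, Dishevelled brings Axin to the membrane, and beta-catenin enters the nucleus and acts with TCF and LEF factors. HEK293T cells are widely used for reporter assays of this pathway.

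The targeted transcript LINC01420 stood at 5.85, 5.96 and 5.41 CPM (counts scaled to TMM-adjusted library totals) in the LOC550643 siRNA libraries, against 56.2, 50.7 and 51.8 CPM in the control siRNA libraries (log2 fold change -3.20). Depth ran from 8604236 read pairs in LOC550643 siRNA replicate 3 to 36082404 in control siRNA replicate 3, so 3 read pairs, the limit that a count of 0 allows, equal 0.0831 to 0.349 CPM. All 9 markers fixed for the HEK293 background were at or above 1 CPM, with summed levels of 1250 to 1377 CPM in LOC550643 siRNA libraries and 1133 to 1255 CPM in control siRNA libraries. Of the markers of other cells, PTPRC of blood cells, PECAM1 of endothelium, COL1A2 of fibroblasts, KRT20 of colon epithelium and TTR of hepatocytes were under 0.05 CPM in both groups. The summed endothelial list was 0.654 to 1.12 CPM in LOC550643 siRNA libraries and 2.34 to 3.28 CPM in control siRNA libraries, led by KDR, and the colon list was 38.1 to 41.0 CPM in LOC550643 siRNA libraries and 44.3 to 48.9 CPM in control siRNA libraries, led by CDX2. Summed fibroblast markers, of which COL1A1 made up most, covered 68.0 to 73.2 CPM in LOC550643 siRNA libraries and 70.0 to 78.1 CPM in control siRNA libraries. Blood cell markers summed to 6.00 to 6.72 CPM in LOC550643 siRNA libraries and 7.37 to 8.51 CPM in control siRNA libraries, and hepatocyte markers to under 1 CPM in every library. The part of these in the results was not tested. Control siRNA replicate 2 stood apart from its group: chi-square per degree of freedom was 31.1 and 41.4 against the other control libraries, which gave 9.42 against each other.

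RefSeq promoter windows, from 250 bases before to 50 bases after the annotated start (GRCh38.p14), matched 43 of the 59 genes with 55 windows. Shown are 4 windows of genes whose log2 fold changes were large among called genes with 1 window, 2 of them lower and 2 higher. WNT4 (chr1:22143048-22143347, minus strand) and FZD4 (chr11:86955346-86955645, minus strand) were lower, and AXIN1 (chr16:352674-352973, minus strand) and WNT3A (chr1:228006748-228007047, plus strand) were higher after LOC550643 siRNA. Each runs 5′ to 3′ on the gene's strand, and capitals mark GC boxes, GGGCGG or, on the other strand, CCGCCC.
WNT4 promoter: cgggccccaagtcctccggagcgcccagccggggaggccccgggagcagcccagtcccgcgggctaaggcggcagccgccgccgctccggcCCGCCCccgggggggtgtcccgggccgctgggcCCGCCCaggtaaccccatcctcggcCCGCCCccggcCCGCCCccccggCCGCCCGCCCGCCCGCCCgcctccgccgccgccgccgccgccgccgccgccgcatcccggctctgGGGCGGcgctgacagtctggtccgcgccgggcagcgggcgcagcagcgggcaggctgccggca
FZD4 promoter: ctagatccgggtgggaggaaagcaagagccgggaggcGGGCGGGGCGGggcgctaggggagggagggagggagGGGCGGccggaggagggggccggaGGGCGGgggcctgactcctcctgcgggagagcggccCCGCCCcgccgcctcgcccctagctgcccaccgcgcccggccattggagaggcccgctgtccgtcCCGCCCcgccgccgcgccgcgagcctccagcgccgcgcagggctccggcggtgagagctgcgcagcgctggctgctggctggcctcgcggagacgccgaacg
AXIN1 promoter: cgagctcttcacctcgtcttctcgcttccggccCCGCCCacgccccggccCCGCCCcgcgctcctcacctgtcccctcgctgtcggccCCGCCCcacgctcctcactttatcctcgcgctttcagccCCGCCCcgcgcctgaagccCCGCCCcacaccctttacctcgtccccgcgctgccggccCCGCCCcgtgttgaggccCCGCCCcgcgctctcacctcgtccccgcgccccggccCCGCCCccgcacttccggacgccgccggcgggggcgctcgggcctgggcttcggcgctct
WNT3A promoter: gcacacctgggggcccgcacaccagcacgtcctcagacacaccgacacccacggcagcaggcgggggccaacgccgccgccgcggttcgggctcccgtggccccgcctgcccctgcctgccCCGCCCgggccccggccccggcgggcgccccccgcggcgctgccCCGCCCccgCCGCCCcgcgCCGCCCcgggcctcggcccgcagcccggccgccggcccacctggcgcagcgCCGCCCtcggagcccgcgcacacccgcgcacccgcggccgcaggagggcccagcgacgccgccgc
The windows are GC-rich, at 85.7% for WNT4, 79.7% for FZD4, 78.0% for AXIN1 and 86.0% for WNT3A, and hold 9, 6, 8 and 5 GC boxes, with overlapping matches counted. A GC box was in 37 of the 55 windows, or 67.3%, against 45% of all 35116 RefSeq windows of this length. The 55 windows were also richer in GC, with a median of 66.3% against 58.7% in all windows, and its part in the difference was not tested. A GC box was in 6 of 10 windows of genes called higher and in 10 of 16 windows of genes called lower. The core TCF/LEF motif CTTTGAT, read on both strands, was in none of the 55 windows and in 2.62% of all windows. These matches of letters are a description, not binding sites.

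Of the 59 genes, 51 passed a filter set at 10 read pairs for a library of median depth and were tested with limma across 16245 genes. A tested gene could thus have fewer in some libraries, as WNT9B had 1 read pair in LOC550643 siRNA replicate 3. After LOC550643 siRNA 9 rose and 19 fell at an adjusted p under 0.05, and 23 did not pass. Over all tested genes 35.7% were called, 17.5% higher and 18.2% lower, so the number of Wnt pathway genes that rose was close to the background and the number that fell was above it. Their median log2 fold change was -0.21, against -0.02 over all tested genes. The values of the groups did not overlap for 35 of the 51 genes, against 48.5% of all tested genes. In bulk RNA, fewer cells with a transcript and less of it per cell cannot be told apart. The other 8 genes were at or near 0: DKK4 and WNT1 had no reads in any library, and SFRP2, WNT2, WNT7A, WNT8A, WNT10A and WNT16 had at most 8.5 read pairs in any library.

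The split between directions depended on the scaling. All tested genes divided into 2837 higher and 2956 lower. With library totals only they divided into 2081 and 3976, and with trends in exon length and GC content removed (14678 genes) into 4072 and 2832. The Wnt pathway genes divided into 8 higher and 24 lower with library totals only, where 12.8% of all tested genes were higher and 24.5% lower. With the trends removed 12 were higher and 21 lower, against 27.7% and 19.3% of all genes with a GC value. With edgeR on recovered read pairs, 28 of the 51 were called, against 36.4% of all tested genes.

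**Figure D1:**
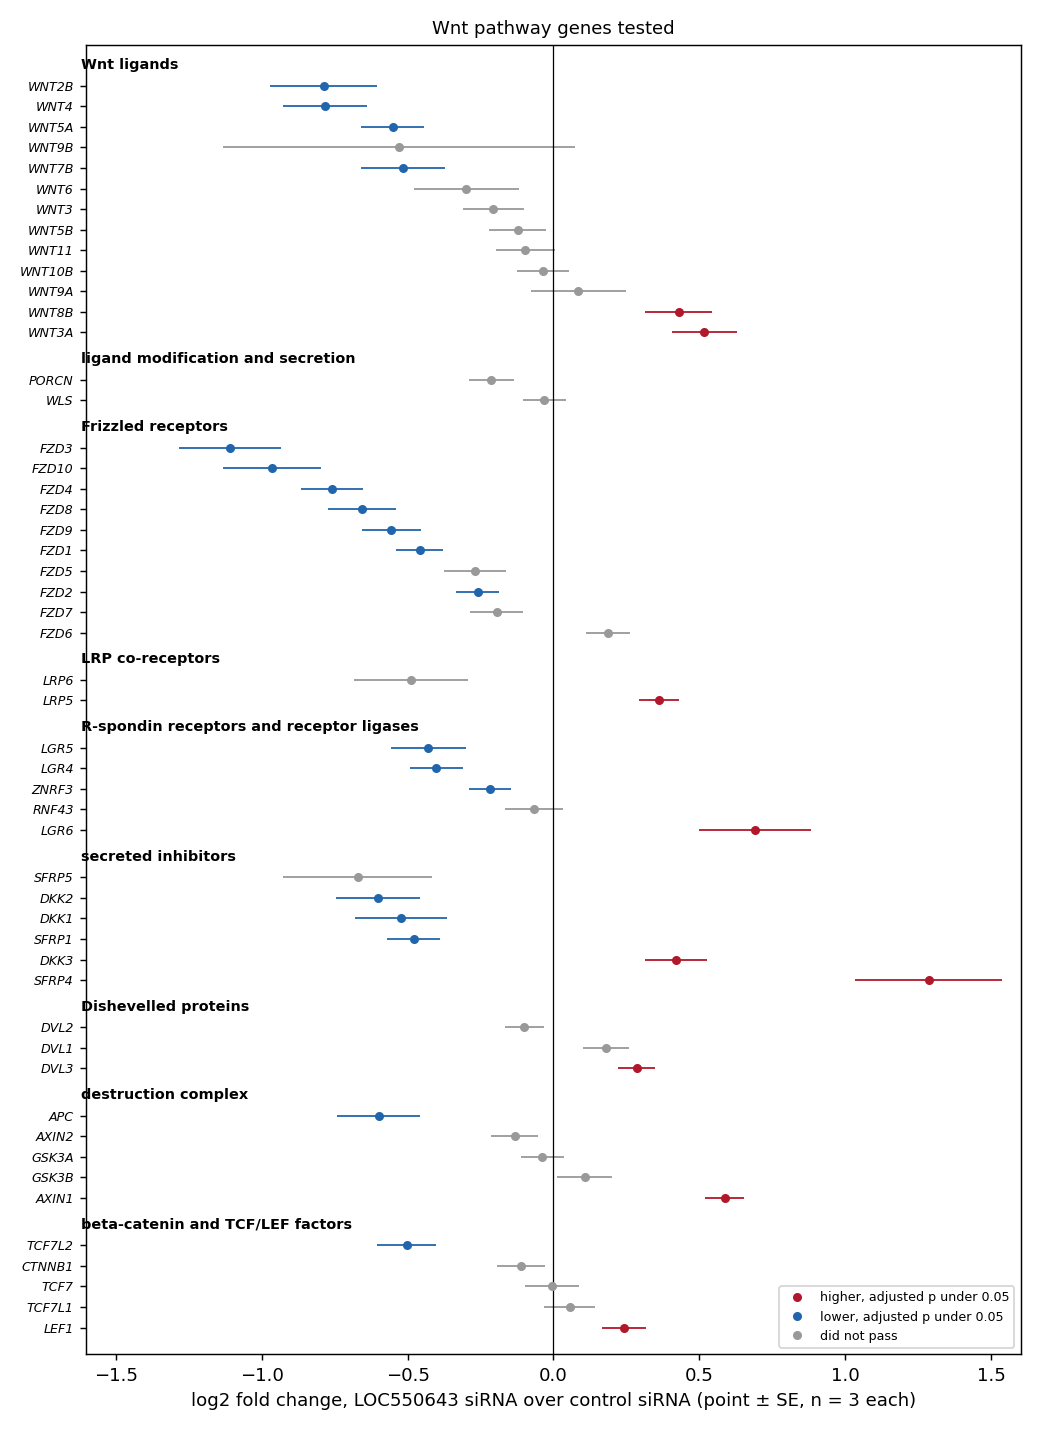
Log2 fold change of the 51 tested Wnt pathway genes, LOC550643 siRNA over control siRNA, as points with SE (n = 3 each), grouped by role and coloured by the limma call. Of the 10 Frizzled receptors 9 lie left of 0, while the intracellular genes lie on both sides.

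The Wnt ligands divided, with 2 of 13 tested ligand genes higher, 4 lower and 7 not past the threshold, beside 17.5% of all tested genes higher and 18.2% lower, and a median log2 fold change of -0.21. WNT5A, a ligand best known for signalling without beta-catenin, stood at 20.1, 17.8 and 22.3 CPM in LOC550643 siRNA libraries, against 28.5, 32.9 and 26.8 CPM in control siRNA libraries. Every LOC550643 siRNA library was below every control library (log2 fold change -0.55, SE 0.11, adjusted p = 0.00219 by limma). WNT4, which is needed for kidney tubule formation in mice, stood at 2.90, 3.25 and 3.03 CPM in LOC550643 siRNA libraries and 5.95, 5.40 and 4.59 CPM in control siRNA libraries (log2 fold change -0.78, SE 0.14, adjusted p = 0.00154). WNT2B, a relative of WNT2, stood at 4.09, 2.74 and 2.79 CPM in LOC550643 siRNA libraries and 4.77, 6.56 and 5.21 CPM in control siRNA libraries (log2 fold change -0.79, SE 0.18, adjusted p = 0.00645). Both groups were separate for each gene, though LOC550643 siRNA replicate 1 came close to the lowest control library for WNT2B. WNT7B, a ligand of kidney and lung epithelium, stood at 3.06, 3.82 and 2.97 CPM in LOC550643 siRNA libraries and 4.76, 4.78 and 4.52 CPM in control siRNA libraries, without overlap (log2 fold change -0.52, SE 0.14, adjusted p = 0.0157). It missed the threshold without control siRNA replicate 1 (adjusted p = 0.0552 by limma) and in libraries thinned to the shallowest (0.211). WNT7B also missed it with DESeq2 (0.0579), and in limma without control siRNA replicate 2 and LOC550643 siRNA replicate 3 together (0.0502).

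The ligands that rose were WNT3A and WNT8B. WNT3A, the ligand used most often to activate beta-catenin signalling in culture, had 18.4, 15.8 and 14.5 CPM in LOC550643 siRNA libraries, against 12.4, 10.8 and 10.7 CPM in control siRNA libraries. All of these exceeded every control library (log2 fold change 0.52, SE 0.11, adjusted p = 0.00425 by limma). WNT8B, a ligand expressed in the developing forebrain, had 8.01, 7.58 and 6.96 CPM in LOC550643 siRNA libraries and 5.71, 5.73 and 5.26 CPM in control siRNA libraries, again with no overlap (log2 fold change 0.43, SE 0.11, adjusted p = 0.0128). The 7 ligands that did not pass were WNT3, WNT5B, WNT6, WNT9A, WNT9B, WNT10B and WNT11, with log2 fold changes between -0.53 and 0.09. The extreme of these was WNT9B, for which LOC550643 siRNA replicate 3 held 1 read pair. Neither gene of Wnt export passed: PORCN, the enzyme that attaches the lipid, averaged 27.8 ± 1.59 CPM in LOC550643 siRNA libraries and 32.2 ± 1.13 CPM in control siRNA libraries (SD, n = 3 each), a log2 fold change of -0.21 at a limma adjusted p of 0.0530. Its groups did not overlap, and it passed as lower under 5 alternatives, library totals only (0.0132), upper-quartile scaling (0.0309), a minimum of 50 read pairs (0.0397), thinning (0.0350) and trends removed (0.0321). WLS, the carrier that brings Wnt proteins to the surface, averaged 257.7 ± 15.6 CPM in LOC550643 siRNA libraries and 263.3 ± 12.9 CPM in control siRNA libraries (log2 fold change -0.03, adjusted p = 0.767).

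**Figure D2:**
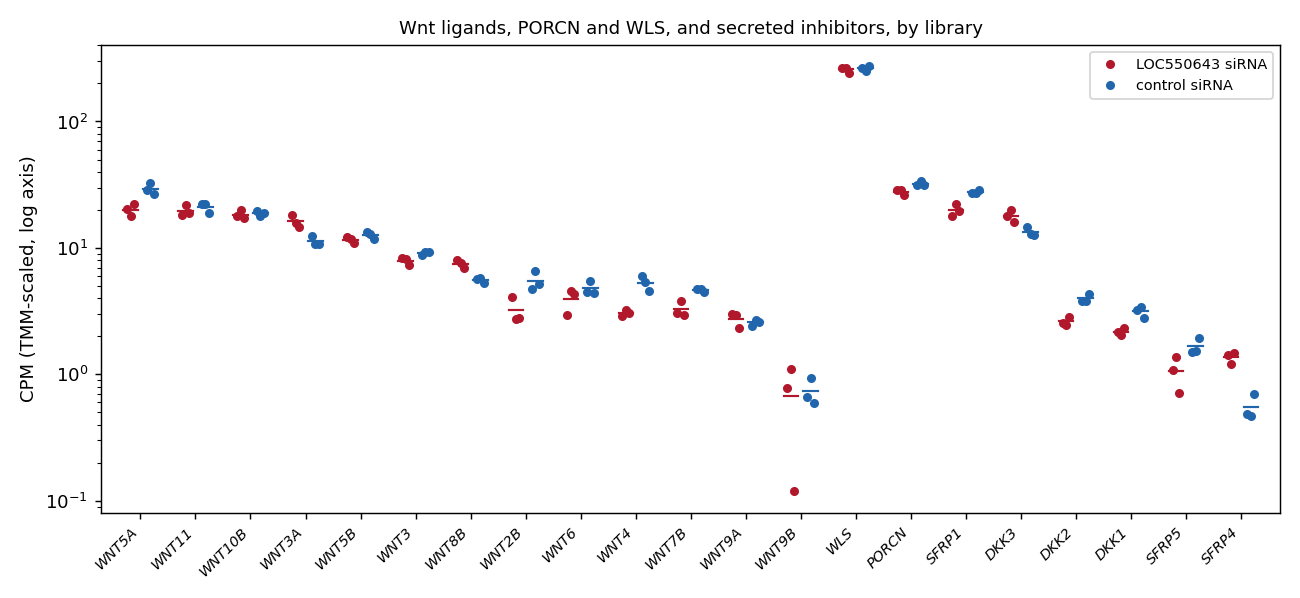
CPM of tested Wnt ligands, WLS, PORCN and secreted inhibitors in each library on a log axis, LOC550643 siRNA left of control siRNA, with bars at group means (n = 3 each). WNT4 shows separate groups around 3.06 CPM in LOC550643 siRNA and 5.31 CPM in control siRNA libraries, and WNT3A the opposite order.

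The Frizzled family, the receptors that bind Wnt ligands through a cysteine-rich domain, held most of the receptor genes that fell. Of its 10 genes, all tested, 7 fell and none rose, beside 18.2% of all tested genes lower, and the median log2 fold change was -0.51. The groups did not overlap for 8 of the 10, against 48.5% of all tested genes. These were the 7 that fell and FZD6, for which every LOC550643 siRNA library was above every control library. FZD3, a receptor needed for axon guidance and planar cell polarity in mice, had 14.5, 13.3 and 17.7 CPM in LOC550643 siRNA libraries, against 30.1, 44.3 and 25.6 CPM in control siRNA libraries. The groups were separate and control siRNA replicate 2 was the highest library (log2 fold change -1.11, SE 0.17, adjusted p = 0.000614 by limma). FZD10 had 1.62, 1.92 and 1.43 CPM in LOC550643 siRNA libraries and 3.20, 3.21 and 3.32 CPM in control siRNA libraries, with no overlap (log2 fold change -0.96, SE 0.17, adjusted p = 0.00117). FZD4, a receptor for Norrin in retinal vessels as well as for Wnt ligands, had 28.9, 34.6 and 34.4 CPM in LOC550643 siRNA libraries and 53.0, 63.8 and 49.6 CPM in control siRNA libraries. Again all control libraries were the higher ones (log2 fold change -0.76, SE 0.11, adjusted p = 0.000289).

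FZD8, used as a soluble domain to capture Wnt ligands, had 9.88, 12.5 and 12.9 CPM in LOC550643 siRNA libraries and 18.7, 19.97 and 16.8 CPM in control siRNA libraries (log2 fold change -0.66, SE 0.12, adjusted p = 0.00145 by limma). FZD9, one of the genes deleted in Williams syndrome, had 11.6, 13.6 and 12.5 CPM in LOC550643 siRNA libraries and 19.4, 19.5 and 16.6 CPM in control siRNA libraries (log2 fold change -0.56, SE 0.10, adjusted p = 0.00161). FZD1 had 29.0, 31.9 and 27.6 CPM in LOC550643 siRNA libraries and 39.1, 42.1 and 40.2 CPM in control siRNA libraries (log2 fold change -0.46, SE 0.08, adjusted p = 0.00122). None of these receptors had overlapping groups. FZD2, close in sequence to FZD1 and FZD7, had 42.6, 46.1 and 40.3 CPM in LOC550643 siRNA libraries and 52.0, 51.3 and 51.1 CPM in control siRNA libraries, a smaller separation (log2 fold change -0.26, SE 0.07, adjusted p = 0.0176). It missed the threshold without LOC550643 siRNA replicate 3 (adjusted p = 0.0635) and without control siRNA replicate 1 (0.0555). FZD2 also missed it in libraries thinned to the shallowest (0.104), and without LOC550643 siRNA replicate 3 and control siRNA replicate 2 together (0.0635). The 3 receptors that did not pass were FZD5, at 34.3 ± 4.31 CPM in LOC550643 siRNA libraries and 41.3 ± 4.43 CPM in control siRNA libraries, FZD6 and FZD7. FZD7 stood at 66.5 ± 7.53 CPM in LOC550643 siRNA libraries and 75.9 ± 4.56 CPM in control siRNA libraries, and FZD6 at 77.6 ± 3.64 CPM in LOC550643 siRNA libraries and 68.2 ± 4.28 CPM in control siRNA libraries (SD, n = 3 each). FZD6 was the one Frizzled gene with a value above 0 on the log2 scale (0.19, adjusted p = 0.0686), and it passed with length and GC trends removed (0.22, adjusted p = 0.00637). FZD5 passed as lower under 5 alternatives (adjusted p 0.0218 to 0.0443), among them without LOC550643 siRNA replicate 3, and FZD7 with library totals only (0.0339).

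The LRP co-receptors, which pass the ligand signal to Axin, stood on opposite sides of 0. LRP5 had 168.8, 181.0 and 163.6 CPM in LOC550643 siRNA libraries, against 135.4, 136.3 and 127.6 CPM in control siRNA libraries, with a clear gap between the groups (log2 fold change 0.36, SE 0.07, adjusted p = 0.00197 by limma). LRP5L, an annotated partial copy of LRP5, was at 6.28 ± 1.46 CPM in LOC550643 siRNA libraries and 6.04 ± 1.40 CPM in control siRNA libraries (SD, n = 3 each), and reads could be split between the pair. LRP6 had 39.1, 32.1 and 47.7 CPM in LOC550643 siRNA libraries and 45.7, 79.2 and 45.8 CPM in control siRNA libraries. These groups overlapped, control siRNA replicate 2 was far above all other libraries, and LRP6 did not pass (log2 fold change -0.49, SE 0.20, adjusted p = 0.0726). Without that control library the LRP6 value was -0.24 on the log2 scale (adjusted p = 0.194). Without control siRNA replicate 3 it was -0.62 (adjusted p = 0.0473), and with length and GC trends removed -0.35 (adjusted p = 0.0113). Without control siRNA replicate 2 and LOC550643 siRNA replicate 3 together it was -0.37 (adjusted p = 0.0101).

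R-spondins raise Wnt signalling through the LGR receptors, which draw the ubiquitin ligases RNF43 and ZNRF3 away from Frizzled. Of these 5 genes 3 fell and 1 rose, beside 18.2% of all tested genes lower and 17.5% higher. LGR4 had 47.0, 54.2 and 58.0 CPM in LOC550643 siRNA libraries, against 65.2, 75.3 and 69.4 CPM in control siRNA libraries, without overlap (log2 fold change -0.40, SE 0.09, adjusted p = 0.00530 by limma). LGR5, known as a marker of intestinal stem cells, had 4.13, 4.02 and 4.40 CPM in LOC550643 siRNA libraries and 5.30, 5.36 and 6.32 CPM in control siRNA libraries (log2 fold change -0.43, SE 0.13, adjusted p = 0.0224). LGR6, the third of the family, rose, with 4.41, 4.48 and 3.27 CPM in LOC550643 siRNA libraries and 2.81, 1.93 and 2.79 CPM in control siRNA libraries (log2 fold change 0.69, SE 0.19, adjusted p = 0.0159). Groups were separate in both cases. ZNRF3 had 44.1, 45.1 and 45.8 CPM in LOC550643 siRNA libraries and 50.7, 55.6 and 50.8 CPM in control siRNA libraries (log2 fold change -0.22, SE 0.07, adjusted p = 0.0335). RNF43 averaged 18.5 ± 1.58 CPM in LOC550643 siRNA libraries and 19.4 ± 1.71 CPM in control siRNA libraries (SD, n = 3 each), and did not pass (log2 fold change -0.07, adjusted p = 0.633). The call of LGR5 was lost without any 1 of LOC550643 siRNA replicate 1, LOC550643 siRNA replicate 2 or control siRNA replicate 3 (adjusted p 0.0529 to 0.0977), that of LGR6 without LOC550643 siRNA replicate 1 or 2 (0.0586 and 0.0691), and that of ZNRF3 without any single library (0.0545 to 0.0867).

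**Figure D3:**
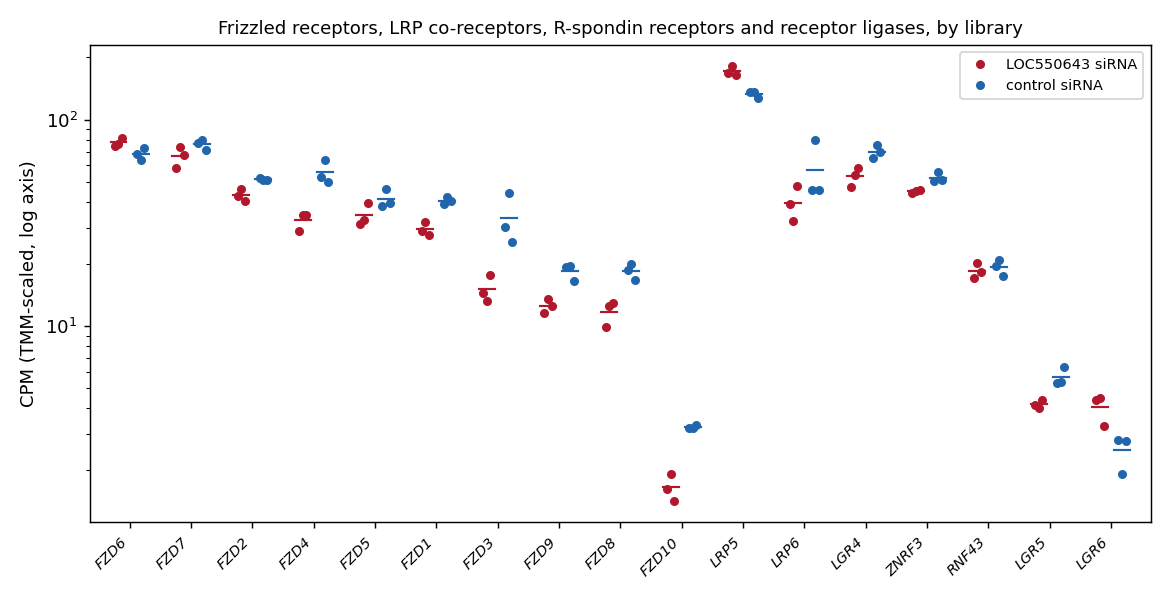
CPM of Frizzled receptors, LRP co-receptors, LGR receptors and receptor ligases in each library on a log axis, LOC550643 siRNA left of control siRNA, with bars at group means (n = 3 each). The FZD10 libraries lie between 1.43 and 1.92 CPM in LOC550643 siRNA and at or above 3.20 CPM in control siRNA, and LRP6 shows 1 control library at 79.2 CPM.

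The secreted inhibitors bind Wnt ligands (the SFRP family) or LRP co-receptors (DKK1 and DKK2), and 2 of the 6 tested rose while 3 fell, beside 17.5% of all tested genes higher and 18.2% lower. SFRP1 had 18.0, 22.1 and 19.7 CPM in LOC550643 siRNA libraries, against 27.0, 27.4 and 28.7 CPM in control siRNA libraries (log2 fold change -0.48, SE 0.09, adjusted p = 0.00199 by limma). DKK2 had 2.57, 2.48 and 2.85 CPM in LOC550643 siRNA libraries and 3.84, 3.83 and 4.36 CPM in control siRNA libraries (log2 fold change -0.60, SE 0.14, adjusted p = 0.00724). DKK1, which blocks LRP6, had 2.15, 2.05 and 2.32 CPM in LOC550643 siRNA libraries and 3.25, 3.41 and 2.77 CPM in control siRNA libraries (log2 fold change -0.52, SE 0.16, adjusted p = 0.0229). In each of these the control libraries were all higher, but DKK1 missed the threshold without LOC550643 siRNA replicate 1 or 2 or control siRNA replicate 1 or 2 (adjusted p 0.0529 to 0.0865). DKK3, a family member that is not known to bind LRP6 in the same way, rose, with 17.8, 19.99 and 16.0 CPM in LOC550643 siRNA libraries and 14.6, 12.8 and 12.6 CPM in control siRNA libraries (log2 fold change 0.42, SE 0.11, adjusted p = 0.0101). It missed the threshold without LOC550643 siRNA replicate 2 (adjusted p = 0.0510). SFRP4 had 1.42, 1.21 and 1.49 CPM in LOC550643 siRNA libraries and 0.483, 0.465 and 0.704 CPM in control siRNA libraries (log2 fold change 1.28, SE 0.25, adjusted p = 0.00230). SFRP4 rested on 12.5 to 49 read pairs a library and was the highest log2 fold change of the 51 genes. SFRP5 did not pass, at 1.06 ± 0.335 CPM in LOC550643 siRNA libraries and 1.66 ± 0.238 CPM in control siRNA libraries (SD, n = 3 each). It passed as lower without LOC550643 siRNA replicate 2 (adjusted p = 0.0339 by limma), with library totals only (0.0414) and with trends removed (0.0426).

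Among the Dishevelled genes, whose products carry the signal from Frizzled to the destruction complex, DVL3 rose, with 117.2, 113.6 and 108.8 CPM in LOC550643 siRNA libraries, against 92.5, 92.5 and 93.4 CPM in control siRNA libraries (log2 fold change 0.29, SE 0.06, adjusted p = 0.00528 by limma). The control libraries were within about 1 CPM of each other and below every LOC550643 siRNA library. DVL1 averaged 188.2 ± 18.2 CPM in LOC550643 siRNA libraries and 165.6 ± 1.44 CPM in control siRNA libraries (SD, n = 3 each) and did not pass (log2 fold change 0.18, adjusted p = 0.0972). It passed as higher without LOC550643 siRNA replicate 3 (adjusted p = 0.0219), without that library and control siRNA replicate 2 (0.0182), and with trends removed (0.0165). DVL2 averaged 126.0 ± 6.20 CPM in LOC550643 siRNA libraries and 135.0 ± 1.19 CPM in control siRNA libraries (log2 fold change -0.10, adjusted p = 0.262), and passed as lower with library totals only (0.0469).

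In the destruction complex, the scaffold genes AXIN1 and APC moved in opposite directions. AXIN1, the scaffold whose amount is held to limit the complex, had 101.9, 104.5 and 95.8 CPM in LOC550643 siRNA libraries, against 68.7, 66.4 and 66.0 CPM in control siRNA libraries (hg19 chr16:337440-402676, minus strand). The groups lay far apart, and AXIN1 had the smallest adjusted p of the Wnt pathway genes (log2 fold change 0.59, SE 0.07, adjusted p = 8.2e-05 by limma). APC, the scaffold lost in most colorectal tumours, had 32.4, 30.2 and 36.0 CPM in LOC550643 siRNA libraries and 42.7, 65.2 and 43.96 CPM in control siRNA libraries (hg19 chr5:112073556-112181936, plus strand). Again no library overlapped, with control siRNA replicate 2 the highest (log2 fold change -0.60, SE 0.14, adjusted p = 0.00694). AXIN2, which is both an Axin scaffold and a widely used transcriptional readout of beta-catenin, had 17.8, 18.0 and 16.8 CPM in LOC550643 siRNA libraries and 19.7, 19.0 and 19.1 CPM in control siRNA libraries. Its groups did not overlap, but the difference did not pass (log2 fold change -0.13, SE 0.08, adjusted p = 0.226). The kinases did not pass: GSK3A averaged 114.8 ± 7.80 CPM in LOC550643 siRNA libraries and 117.8 ± 4.74 CPM in control siRNA libraries (log2 fold change -0.04, adjusted p = 0.715), and GSK3B averaged 57.3 ± 4.51 CPM in LOC550643 siRNA libraries and 53.3 ± 6.48 CPM in control siRNA libraries (SD, n = 3 each; log2 fold change 0.11, adjusted p = 0.406). GSK3B passed as higher with trends removed (adjusted p = 0.0117).

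CTNNB1, the gene of beta-catenin, had 303.8, 365.8 and 331.9 CPM in LOC550643 siRNA libraries, against 366.6, 343.2 and 369.4 CPM in control siRNA libraries, and the groups overlapped (log2 fold change -0.11, SE 0.08, adjusted p = 0.311 by limma). TCF7L2, the TCF factor best known from intestine and pancreas, fell, with 18.1, 15.8 and 17.8 CPM in LOC550643 siRNA libraries and 21.5, 25.5 and 26.5 CPM in control siRNA libraries (log2 fold change -0.50, SE 0.10, adjusted p = 0.00287). LEF1 rose, with 56.7, 57.2 and 58.0 CPM in LOC550643 siRNA libraries and 48.6, 44.8 and 52.4 CPM in control siRNA libraries (log2 fold change 0.24, SE 0.08, adjusted p = 0.0278). Both had separate groups, but LEF1 missed the threshold when any 1 library other than control siRNA replicate 3 was left out (adjusted p 0.0568 to 0.0949). LEF1-AS1, on the opposite strand with 279 shared exon bases, was also higher (5.72 ± 0.362 CPM in LOC550643 siRNA libraries and 4.39 ± 0.665 CPM in control siRNA libraries, SD, n = 3 each, adjusted p = 0.0495 by limma), and no strand option is given for the counting, so reads of the pair cannot be told apart where they overlap. TCF7 averaged 26.0 ± 2.59 CPM in LOC550643 siRNA libraries and 26.0 ± 1.22 CPM in control siRNA libraries, and TCF7L1, a factor that mostly represses, 20.4 ± 1.71 CPM in LOC550643 siRNA libraries and 19.6 ± 0.673 CPM in control siRNA libraries (SD, n = 3 each). Neither passed (adjusted p = 0.975 for TCF7 and 0.665 for TCF7L1).

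**Figure D4:**
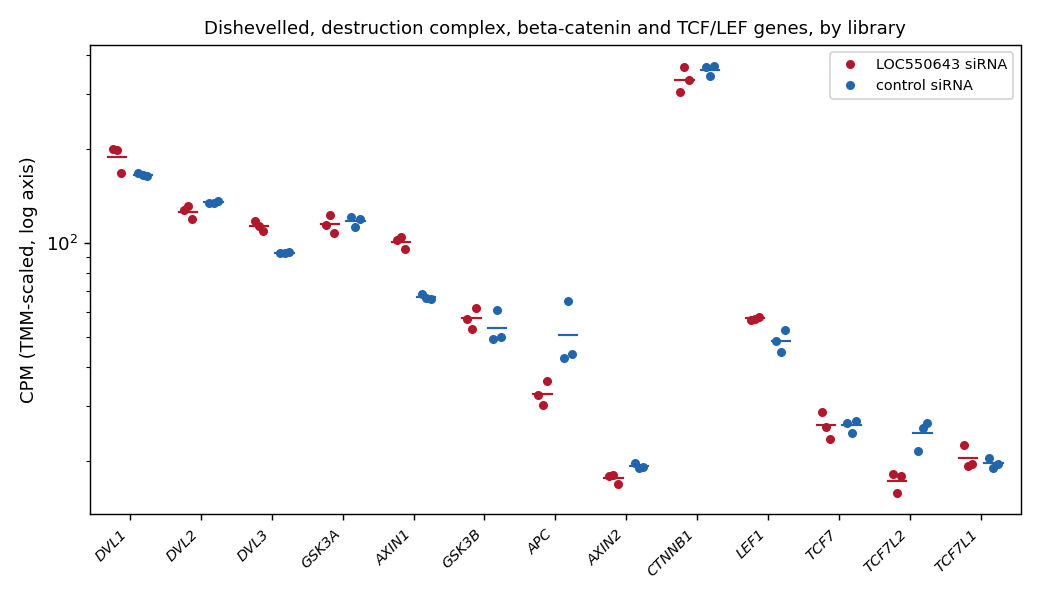
CPM of Dishevelled, destruction complex, beta-catenin and TCF/LEF genes in each library on a log axis, LOC550643 siRNA left of control siRNA, with bars at group means (n = 3 each). AXIN1 shows groups around 100.7 CPM in LOC550643 siRNA and 67.0 CPM in control siRNA libraries, APC the opposite order, and the CTNNB1 groups overlap.

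Levels between genes were compared as CPM per kilobase of exon. CTNNB1 and WLS had the highest, at 93.7 ± 6.99 and 93.7 ± 4.73 CPM per kb over the 6 libraries (SD), followed by DVL1 at 60.9 ± 5.83, GSK3A at 53.7 ± 2.77 and DVL2 at 43.5 ± 2.10 CPM per kb. CTNNB1 and WLS did not differ beyond their spread. The ranges of mean ± SD of DVL1 and GSK3A overlapped, while those of WLS and DVL1, and of GSK3A and DVL2, did not. Of the receptors, LRP5 had the highest level, at 29.6 ± 4.25 CPM per kb, ahead of FZD6 and FZD7. FZD6 was above FZD7 in LOC550643 siRNA libraries, at 20.5 ± 0.962 and 17.3 ± 1.96 CPM per kb. In control siRNA libraries its mean was below that of FZD7, at 18.0 ± 1.13 and 19.7 ± 1.18 CPM per kb (SD, n = 3 each). There the ranges of mean ± SD overlapped, and neither gene had passed between groups. The highest ligand was WNT11 at 10.6 ± 0.977 CPM per kb, followed by WNT10B at 7.86 ± 0.463 CPM per kb. The Wnt pathway genes with the lowest and highest log2 fold change had low levels: FZD3 was at 1.10 ± 0.167 CPM per kb in LOC550643 siRNA libraries and 2.42 ± 0.707 CPM per kb in control siRNA libraries, and SFRP4 at 0.463 ± 0.0482 CPM per kb in LOC550643 siRNA libraries and 0.186 ± 0.0449 CPM per kb in control siRNA libraries (SD, n = 3 each).

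Control siRNA replicate 2 stood above the other control libraries for some genes. Of 49 Wnt pathway genes with a mean of at least 1 CPM, 4 stood there over 1.25 times the mean of the other control libraries, against 1564 of 14717 genes, or 10.6%. These were LRP6 at 1.73 times, FZD3 at 1.59 times, APC at 1.504 times and WNT2B at 1.31 times. The long transcripts LRP6 (10058 bases of exon), APC (10819 bases) and FZD3 (13777 bases) were among them. LOC550643 siRNA replicate 3 was also above the mean of LOC550643 siRNA replicates 1 and 2 for LRP6 (1.34 times), FZD3 (1.28 times) and APC (1.15 times). For WNT2B it was below (0.818 times), and the cause was not tested. Without control siRNA replicate 2 APC was still lower (log2 fold change -0.41, adjusted p = 0.00475 by limma), as was FZD3 (-0.89, adjusted p = 0.000271). With length and GC trends removed, APC stood at -0.45 and FZD3 at -0.89. With this library and LOC550643 siRNA replicate 3, the shallowest, both left out, 27 of 51 Wnt pathway genes were called, 9 higher and 18 lower. Of the 10 Frizzled genes 7 were lower. Over all 16275 genes tested in that setting 5545 were called, 2727 higher and 2818 lower.

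**Figure D5:**
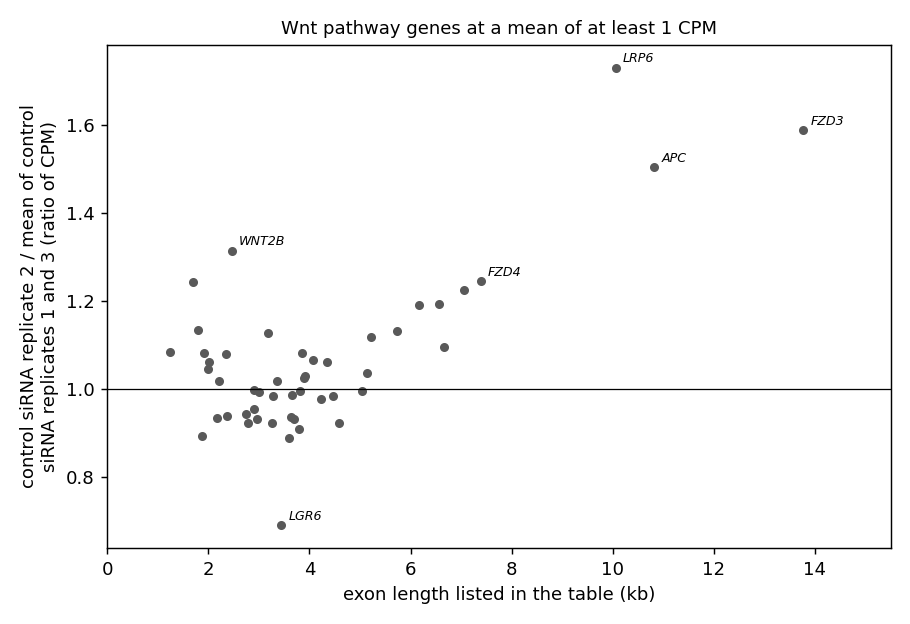
CPM in control siRNA replicate 2 over the mean of control siRNA replicates 1 and 3, by exon length, for the 49 Wnt pathway genes with a mean of at least 1 CPM. The 3 genes over 10 kb, LRP6, FZD3 and APC, stand at 1.504 to 1.73 times, and the shorter genes range from 0.690 for LGR6 to 1.31 for WNT2B.

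In the authors' deposited table, 27 of the 59 genes had an adjusted p under 0.05. Of all 26391 rows, 4787 of which were 0 in every library, 19.8% did, as did 4809 of the 19255 protein-coding rows. The authors' deposited table put 2 of the 59 genes past a log2 fold change of 1 as well, FZD3 (-1.16, adjusted p = 5.53e-09) and SFRP4 (1.28, adjusted p = 4.18e-05). Past both limits were 1.96% of all rows and 432 of the 19255 protein-coding rows. LRP6 passed in the authors' deposited table (adjusted p = 0.0296) and not in limma. LEF1 and ZNRF3 passed in limma and not in the authors' deposited table (adjusted p = 0.0749 and 0.0830).

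Other genes of the pathway were read from 6 lists, 164 genes without the Wnt pathway genes above, of which 152 were tested. Of these, 33 rose and 32 fell, beside 17.5% and 18.2% of all tested genes, with a median log2 fold change of 0.03. The destruction complex partners and regulators of beta-catenin turnover had 8 higher and 2 lower of 29, with a median of 0.08. Of the 29, 34.5% were called, against 35.7% of all tested genes. Log2 fold changes in this list ran from -1.025 to 0.429, and the 4 genes named here, by smallest p, all rose. They included the casein kinase genes CSNK1D, at 265.3 ± 12.3 CPM in LOC550643 siRNA libraries and 197.0 ± 4.42 CPM in control siRNA libraries, and CSNK1G2, at 187.3 ± 4.86 CPM in LOC550643 siRNA libraries and 144.1 ± 0.998 CPM in control siRNA libraries. The phosphatase subunit genes PPP2R5D (182.8 ± 18.8 CPM in LOC550643 siRNA and 136.0 ± 0.855 CPM in control siRNA libraries) and PPP2R5A (49.8 ± 1.85 CPM in LOC550643 siRNA and 37.6 ± 2.52 CPM in control siRNA libraries) rose too (SD, n = 3 each).

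Secreted and cell surface modulators had 6 higher and 11 lower of 30, beside 17.5% and 18.2% of all tested genes, with a median of -0.15. TSPAN12, a tetraspanin partner of FZD4 in Norrin signalling, was at 7.60 ± 0.673 CPM in LOC550643 siRNA libraries, against 20.7 ± 1.70 CPM in control siRNA libraries (log2 fold change -1.44). FZD4 and TSPAN12 were thus both lower. TMEM198, a protein reported to act with LRP6, was at 10.8 ± 1.90 CPM in LOC550643 siRNA libraries and 24.1 ± 1.25 CPM in control siRNA libraries (log2 fold change -1.17), and SHISA2, of a family that retains Frizzled inside the cell, at 13.1 ± 2.14 CPM in LOC550643 siRNA libraries and 28.0 ± 3.87 CPM in control siRNA libraries (-1.10). IGFBP4, an IGF-binding protein reported to inhibit Wnt signalling, rose, at 13.6 ± 0.641 CPM in LOC550643 siRNA libraries and 7.66 ± 0.428 CPM in control siRNA libraries (0.82; SD, n = 3 each).

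Nuclear co-activators and co-repressors had 10 higher and 3 lower of 24, beside 17.5% and 18.2% of all tested genes, with a median of 0.19. AES, a short Groucho-family protein, was at 273.2 ± 17.7 CPM in LOC550643 siRNA libraries and 120.8 ± 5.29 CPM in control siRNA libraries (log2 fold change 1.18), and SMARCA4, the chromatin remodelling ATPase, at 362.8 ± 10.7 CPM in LOC550643 siRNA libraries and 230.0 ± 10.7 CPM in control siRNA libraries (0.66). TLE2, a Groucho co-repressor, and BCL9, which joins beta-catenin to Pygopus, fell, by 0.58 and 0.56 on the log2 scale. The number higher was 6 with library totals only, where 12.8% of all tested genes were higher, and 16 with length and GC trends removed, where 27.7% were.

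Genes reported elsewhere as Wnt targets had 5 higher and 14 lower of 38, beside 17.5% and 18.2% of all tested genes, with a median of -0.13; without the Wnt pathway genes they had 4 higher and 11 lower of 31. MITF, a transcription factor of melanocytes, was at 12.8 ± 1.86 CPM in LOC550643 siRNA libraries and 26.6 ± 1.65 CPM in control siRNA libraries (log2 fold change -1.06), and NOTUM, an enzyme that removes the lipid from Wnt, at 6.63 ± 0.759 CPM in LOC550643 siRNA libraries and 10.8 ± 0.248 CPM in control siRNA libraries (-0.71). PRMT6, an arginine methyltransferase, and CYR61, a matrix protein, rose (0.84 and 0.57; SD, n = 3 each). Without LOC550643 siRNA replicate 1, or without control siRNA replicate 1, 9 target genes were called lower. Over all tested genes 2551 of 16380 and 2237 of 16394 were lower in these settings.

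The planar cell polarity genes and DVL partners had 3 higher and 5 lower of 30, near or below the 17.5% and 18.2% of all tested genes, with a median of -0.06. RAC1, a small GTPase, and SCRIB, a polarity scaffold, rose by 0.56 and 0.52 on the log2 scale, and PRICKLE4 and VANGL1 fell by 0.46 and 0.39. Wnt secretion and retromer genes had 2 higher and 1 lower of 11, beside the same shares: TMED2, a cargo receptor of the early secretory pathway, was at 165.4 ± 7.08 CPM in LOC550643 siRNA libraries and 265.8 ± 18.6 CPM in control siRNA libraries (-0.68), while PACS1, a sorting protein, and VPS26B, a retromer subunit, rose by 0.37 and 0.29.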

How the data were processed

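Per the labels' protocols, mRNA of the 6 HEK293T samples (3 per siRNA) was captured by its poly-A tail, made into dUTP libraries and read from both ends (75 bases), and the STAR aligner (2.4.0k) placed reads on hg19. HOMER counted them over exons and edgeR (3.6.8 in the labels) compared the groups, per the file headers, which show no strand option. The deposited per-library values are a signal, scaled by the authors to a common total. All are whole multiples of 1 step per library (100% within 0.1 step), taken here as 1 read end, and read pairs rest on that reading. The authors' deposited log2 fold changes and p-values were used only where named, and their sign was read from LINC01420.

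Groups were compared with limma 3.58.1 (trend, two-sided, Benjamini-Hochberg) on the log2 of TMM-scaled values with a pseudocount of 1 deposited unit (0.034 CPM), which understates fold changes of low genes. Low genes were removed with filterByExpr at 10 read pairs, a minimum that it scales to the median library depth. CPM are TMM-scaled. edgeR 4.0.16 and DESeq2 1.42.0 on recovered read pairs (100% of values came out whole, and edgeR called 5908 genes), other scalings, filters and pseudocounts, thinning, a replicate block and leaving out libraries were alternatives; the length and GC correction and the joint removal of 2 libraries were added after seeing the data. The limit of 3 read pairs for a count of 0 covers counting error only. SD come from the spread between libraries. The SE of limma draws on that spread and on its trend over all tested genes. The Wnt pathway genes and the lists were chosen with earlier results of these data known. Genes were named by rule: all called members, 19 core genes, the 5 highest per kilobase and up to 4 genes with the smallest p per list. Promoters shown had 1 RefSeq window and a gene mean of at least 1 CPM, outside chromosome 8. Coordinates of genes are those of the table (hg19).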

Additional observations from a re-analysis of the deposited data

How the results depend on the processing

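Of the 28 Wnt pathway genes called, 20 kept their direction and call under every alternative at the same threshold in which they were tested (SFRP4 was in 17 of 19, since it did not reach the 50 read pair minimum or the filter on thinned libraries), 8 lost the call under at least 1 (DKK1, DKK3, FZD2, LEF1, LGR5, LGR6, WNT7B and ZNRF3), and none reversed; the cause was not tested. 9 of the 23 that had not passed did so under at least 1 alternative. Over the alternatives at the same threshold 23 to 33 Wnt pathway genes and 6 to 9 Frizzled receptors called lower were found. The count over all tested genes also varied. It was 4388 of 16394 without control siRNA replicate 1, where 23 Wnt pathway genes were called. It was 6904 of 14678 with length and GC trends removed, where 33 were called. With library totals only, the median log2 fold change of the Wnt pathway genes was -0.28 and 6 nuclear co-factors were higher; with control siRNA replicate 2 and LOC550643 siRNA replicate 3 both left out the median was -0.14. With length and GC trends removed 16 nuclear co-factors were higher. At an adjusted p under 0.01, 3521 genes were called, 1770 higher and 1751 lower, and 19 Wnt pathway genes were called, 5 higher and 14 lower. Reported Wnt targets called lower ranged from 9 to 12 when 1 library was left out, and all tested genes called lower from 2237 to 2882. The replicate numbers are shared by label alone: deviations of same-numbered libraries correlated at 0.0584, -0.283 and -0.12. With the replicate block 27 Wnt pathway genes and 5389 genes in all were called, and DKK1 missed the threshold (adjusted p = 0.0511).

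Signs reversed only for genes that had not passed. On the log2 scale, WNT9B was 0.167 with edgeR, 0.055 with DESeq2, 0.544 with both of these libraries left out and -1.095 to 0.358 when 1 library was left out, and WNT9A was -0.165 in libraries thinned to the shallowest. TCF7 was 0.0018 with median-of-ratios scaling, 0.013 with edgeR, 0.019 with DESeq2, 0.038 with the trends removed, 0.025 with both libraries out, and -0.078 to 0.065 when 1 library was left out. TCF7L1 was -0.021 with library totals and -0.013 to 0.094 with 1 library left out. RNF43 was 0.0073 with the trends removed and 0.00041 with both libraries out. With 1 library left out, GSK3A ranged from -0.089 to 0.0085, WLS from -0.081 to 0.020 and WNT10B from -0.098 to 0.013. Depth limits WNT9B, SFRP4 and the 8 untested genes, and LOC550643 siRNA replicate 3 had the fewest reads. In libraries thinned to the shallowest, FZD2, LEF1, WNT7B and ZNRF3 lost their calls (adjusted p 0.0781 to 0.211 by limma).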

Other observations

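Summed over the genes of a role as CPM per kilobase of exon, the Frizzled receptors stood at 76.2 ± 4.49 in LOC550643 siRNA libraries and 91.4 ± 3.55 in control siRNA libraries, a ratio of 0.833 (SD, n = 3 each). The R-spondin receptors and receptor ligases stood at 22.2 ± 1.28 in LOC550643 siRNA libraries and 26.6 ± 1.40 in control siRNA libraries (ratio 0.836), and the LRP co-receptors at 37.3 ± 1.02 in LOC550643 siRNA libraries and 31.6 ± 2.57 in control siRNA libraries (ratio 1.18). The Wnt ligands summed to 46.0 ± 2.43 in LOC550643 siRNA libraries and 48.9 ± 2.66 in control siRNA libraries, and the destruction complex to 95.9 ± 4.02 in LOC550643 siRNA libraries and 89.5 ± 0.821 in control siRNA libraries. The sums of Frizzled receptors, of R-spondin receptors and ligases, of LRP co-receptors and of the destruction complex did not overlap between groups. Of all single tested genes, 48.5% did not overlap. The sums of Wnt ligands, export genes, secreted inhibitors, Dishevelled genes and beta-catenin and TCF/LEF genes overlapped. All of these sums are led by the genes with the highest levels and were not tested.

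BZRAP1-AS1, which overlaps RNF43 on the opposite strand, was at 4.81 ± 0.457 CPM in LOC550643 siRNA libraries and 5.72 ± 0.621 CPM in control siRNA libraries. GNG12-AS1, which shares 111 exon bases with WLS on the opposite strand, was at 2.00 ± 0.406 CPM in LOC550643 siRNA libraries and 1.76 ± 0.159 CPM in control siRNA libraries (SD, n = 3 each), far below WLS.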
